A study of Mus musculus with 18 samples.

Results

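The genes described here are 10 heavy chains of MHC class I measured in colon epithelial cells of the mouse. They are H2-K1 and H2-D1 (classical), H2-Q6, H2-Q7, H2-Q8, H2-T10, H2-T22, H2-T23 and H2-M3 (non-classical), and H2-K2, which the array file lists as EG630499. Members were taken by symbol, which gave 21 of the 45281 probes on the array and 10 of its 30869 gene symbols. RNA came from colon epithelium sorted by flow cytometry and was measured on Illumina MouseWG-6 BeadChips, whose probes are 50 bases long. Each of the 4 groups held 4 samples: untreated WT mice (samples 9 to 12), WT mice given 2% DSS (samples 1 to 4), untreated Mbd2KO mice (samples 13 to 16) and Mbd2KO mice given 2% DSS (samples 5 to 8). DSS, dextran sodium sulphate, is put in the drinking water and injures the colon epithelium. Mbd2 is a protein that binds methylated CpG and is linked to gene repression. The mice were adults on a C57BL/6 background, and WT littermates were co-housed where possible. For the DSS-treated epithelium the study describes a global knockout, so every cell type of those animals lacked the gene. It does not describe the knockout of the untreated epithelial samples. DSS was given for just under a week. Cells were gated as EpCAM+ and negative for CD45, CD3 and a macrophage marker. A sample could hold pooled cells of several mice, and how many entered each, or which of several separate experiments it came from, is not given in the sources used here, so the p-values below measure the spread between samples.

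An MHC class I molecule is a heavy chain held together with β2-microglobulin around a short peptide. The peptides are cut by the proteasome, carried into the endoplasmic reticulum by the Tap transporter and loaded with the help of tapasin. Classical heavy chains present peptides from inside the cell to CD8 T cells and are carried by nearly all nucleated cells, the intestinal epithelium included. Non-classical heavy chains vary less between individuals and have narrower roles: H2-T23 (Qa-1) presents leader peptides of other class I molecules to an inhibitory receptor of NK cells, H2-M3 presents formylated peptides such as those of bacteria, and H2-Q6, H2-Q7 and H2-Q8 belong to the Qa-2 family. Interferon raises the whole pathway, in which Nlrc5 is the transactivator of class I genes.

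All member probes that the file places on the genome lie on chromosome 17, in the H2 complex. RefSeq (GRCm38.p6) lists H2-K2 and H2-T10 as transcribed pseudogenes and the other matched members as protein coding. The file does not name the build of its probe positions, so they are not printed.

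Heavy chain genes are close copies of each other, and the sequences of the probes show how far a signal can be given to 1 gene. Of the 21 member probes, 6 were alike to a member probe of another gene, 4 to a probe of a gene outside the members, and 11 to no other probe on the array (alike meant a shared run of 20 bases or more, or an overlap of 30 bases or more with at least 90% identity). The first set read the same stretch of H2-Q7, H2-Q6 and H2-K1, with 35 of 36 overlapping bases identical between H2-Q7 and H2-Q6 and 34 of 36 between H2-Q6 and H2-K1. Capitals mark bases shared by all probes of the set that cover the position.
H2-Q7 ILMN_2754167: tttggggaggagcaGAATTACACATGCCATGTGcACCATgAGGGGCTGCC
H2-Q6 ILMN_2675337: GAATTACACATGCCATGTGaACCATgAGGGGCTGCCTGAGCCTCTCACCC
H2-K1 ILMN_2795520: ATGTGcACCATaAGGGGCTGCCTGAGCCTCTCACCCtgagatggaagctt

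The second set joined H2-T23 and H2-K2, a non-classical gene and a copy of the K region. The H2-K2 probe shared 46 of 49 overlapping bases with one H2-T23 probe and 45 of 48 with the other, with capitals used as before.
H2-T23 ILMN_2777471: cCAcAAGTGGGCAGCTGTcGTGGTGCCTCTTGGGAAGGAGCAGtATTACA
H2-K2 ILMN_2588130: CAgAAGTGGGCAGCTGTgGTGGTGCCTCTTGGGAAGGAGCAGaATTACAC
H2-T23 ILMN_2777474: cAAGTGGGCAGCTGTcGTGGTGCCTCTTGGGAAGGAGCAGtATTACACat

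The third set is shown because it reaches genes outside the members. It held an H2-Q7 probe and the probes of H2-Q5 and H2-Q1, neighbouring genes of the Q region that are not members. Of the overlapping bases, 29 of 31 were identical between H2-Q7 and H2-Q5 and 39 of 43 between H2-Q7 and H2-Q1.
H2-Q5 ILMN_2862706: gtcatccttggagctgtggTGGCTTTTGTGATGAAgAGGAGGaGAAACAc
H2-Q7 ILMN_2651877: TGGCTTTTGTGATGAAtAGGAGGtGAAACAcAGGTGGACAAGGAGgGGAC
H2-Q1 ILMN_1216688: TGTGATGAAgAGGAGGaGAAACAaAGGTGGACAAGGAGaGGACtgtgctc

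Both H2-Q8 probes, which gave the largest fold changes of the family with DSS, and the dimmer H2-K2 probe were alike to no other probe on the array by these rules. They are printed in lower case, since no base is shared.
H2-Q8 ILMN_2951592: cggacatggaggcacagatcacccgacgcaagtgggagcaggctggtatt
H2-Q8 ILMN_2771182: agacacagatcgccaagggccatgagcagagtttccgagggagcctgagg
H2-K2 ILMN_2810539: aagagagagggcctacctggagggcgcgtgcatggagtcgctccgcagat
Only probes of the array were compared, so a likeness to transcripts without a probe was not seen.

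Of the 21 member probes, 19 from 9 genes passed the filter on dim probes (detected on at least 4 of the 18 arrays) and were tested among 21938 probes. H2-T22 had a single probe, detected on 1 of 18 arrays, and was not tested. A probe of H2-D1 (ILMN_2608090), detected on 2 arrays, was also not tested. A probe was called at an adjusted p under 0.01 with an absolute log2 fold change of 1 or more. The Mbd2 probe was detected on 0 of 18 arrays, in WT and Mbd2KO alike, so it could not check the genotypes. Between 18851 and 20618 probes were detected per array. All 10 epithelial markers, among them Epcam, Cdh1 and Krt8, were detected on all 18 arrays. Of the leukocyte markers, Cd8a, Itgam and Itgax were detected on 0 arrays and Ptprc and Cd3e on 3 each, whereas Lyz2, Cd68 and Csf1r were detected on all 18.

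In DSS-treated mice the heavy chains were higher in Mbd2KO than in WT epithelium across the family. All 19 tested probes were higher at an adjusted p under 0.05, as were 2.46% of all tested probes, and 14 were called, all of them higher, against 0.501% of all tested probes called higher. The median log2 fold change was 1.53 over the 19 probes and -0.0034 over all tested probes, and the smallest and largest were 0.73 and 3.62. In all 19 the 4 Mbd2KO samples lay above the 4 WT samples, which held for 6.43% of all tested probes. Q region probes had a median of 2.46 (6 of 6 called), T and M region probes one of 1.20 (4 of 7 called) and the classical H2-K1 and H2-D1 one of 1.16 (2 of 4 called). Both H2-K2 probes were called, at 1.07 and 1.96. The number of calls, though not the direction, depended on single samples: it was 4 without sample 2, 5 without sample 4, 2 without sample 5 and 6 without sample 7 or 8. In each of these cases at least 18 of 19 had an adjusted p under 0.05.

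Without DSS the heavy chains were also higher in Mbd2KO mice, with a wider spread. All 19 fold changes were positive, with a median of 1.06 (all tested probes -0.0011), 13 had an adjusted p under 0.05 (background 2.43% higher) and 7 were called, against a background of 0.401% called higher. Samples did not overlap for 14 of the 19, against 6.71% of all tested probes. The Q region again had the highest median, at 2.05 with 4 of 6 called, and the T and M region had 0.89 with 2 of 7 called. None of the 4 classical probes was called, although 3 had an adjusted p under 0.05, and their median was 0.94. When the untreated groups were fitted alone, 8 of the 19 probes had an adjusted p under 0.05 and 0 were called.

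**Figure D1:**
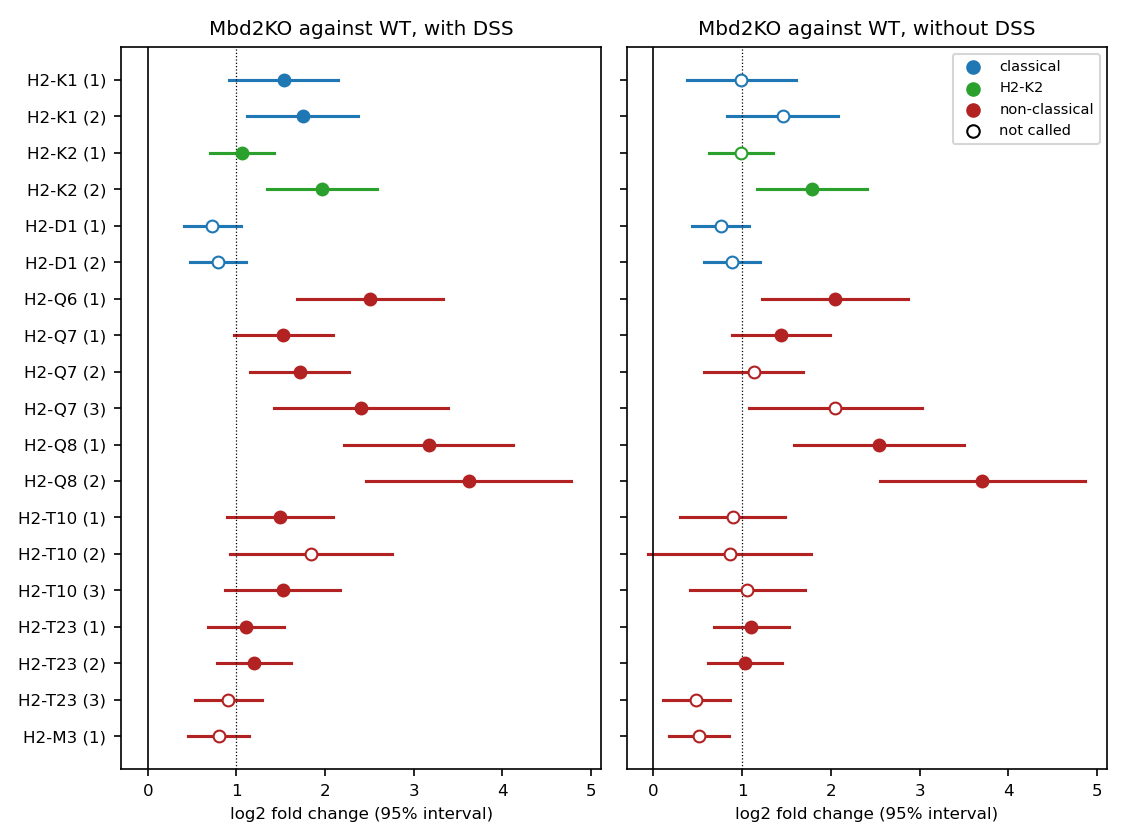
Log2 fold change of Mbd2KO over WT for the 19 tested probes of 9 heavy chain genes, with DSS on the left and without on the right (points, with bars for the 95% interval of the fit; numbers in brackets tell the probes of a gene apart, brightest first). Filled points were called and the dotted line marks a log2 fold change of 1; both H2-Q8 probes lie farthest to the right in both panels, and every point is above 0.

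H2-K1, a classical heavy chain, had log2 signals of 11.55, 11.38, 11.64 and 11.61 in untreated WT samples, 10.92, 11.16, 11.03 and 11.15 in DSS-treated WT, 12.86, 11.88, 13.64 and 11.75 in untreated Mbd2KO and 12.67, 12.25, 12.68 and 12.78 in DSS-treated Mbd2KO (ILMN_2588139, the brighter of its probes). Every Mbd2KO sample was above every WT sample. With DSS the log2 fold change was 1.53 ± 0.29 (SE), a 2.89-fold difference with a limma adjusted p of 0.00679. Without DSS it was 0.99 ± 0.29, with an adjusted p of 0.0587, and was not called. The other H2-K1 probe, which shares sequence with H2-Q6, changed by 1.75 and 1.46 (adjusted p 0.00360 and 0.0116 from limma).

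H2-D1, the second classical heavy chain, differed by less, with little spread except in untreated Mbd2KO (SD 0.39 for its brighter probe). Its brighter probe (ILMN_2462745) read 12.98, 12.90, 13.12 and 13.21 in untreated WT, 13.19, 13.05, 13.20 and 13.19 in DSS-treated WT, 14.01, 13.50, 14.25 and 13.47 in untreated Mbd2KO and 13.97, 13.76, 13.94 and 13.89 in DSS-treated Mbd2KO. The genotypes did not overlap with or without DSS. The log2 fold change was 0.73 ± 0.15 with DSS (limma adjusted p 0.0110) and 0.76 ± 0.15 without (adjusted p 0.0106), both under the limit of 1 for a call. A further probe gave 0.80 and 0.88, with limma adjusted p of 0.00649 and 0.00355. Both lay among the brighter probes on the array, with at most 2.72% of tested probes brighter in any sample.

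H2-K2, the K region gene that RefSeq lists as a pseudogene, was measured by a very bright probe (ILMN_2588130) and a dimmer one. With DSS the bright probe read 13.00 ± 0.18 (SD, n = 4) in WT and 14.06 ± 0.14 in Mbd2KO. Without DSS it read 13.03 ± 0.16 in WT and 14.01 ± 0.42 in Mbd2KO. The dimmer probe (ILMN_2810539), alike to no other probe, was 3.89-fold higher in Mbd2KO with DSS and 3.45-fold higher without. It was called in both (limma adjusted p 0.00188 and 0.00266).

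**Figure D2:**
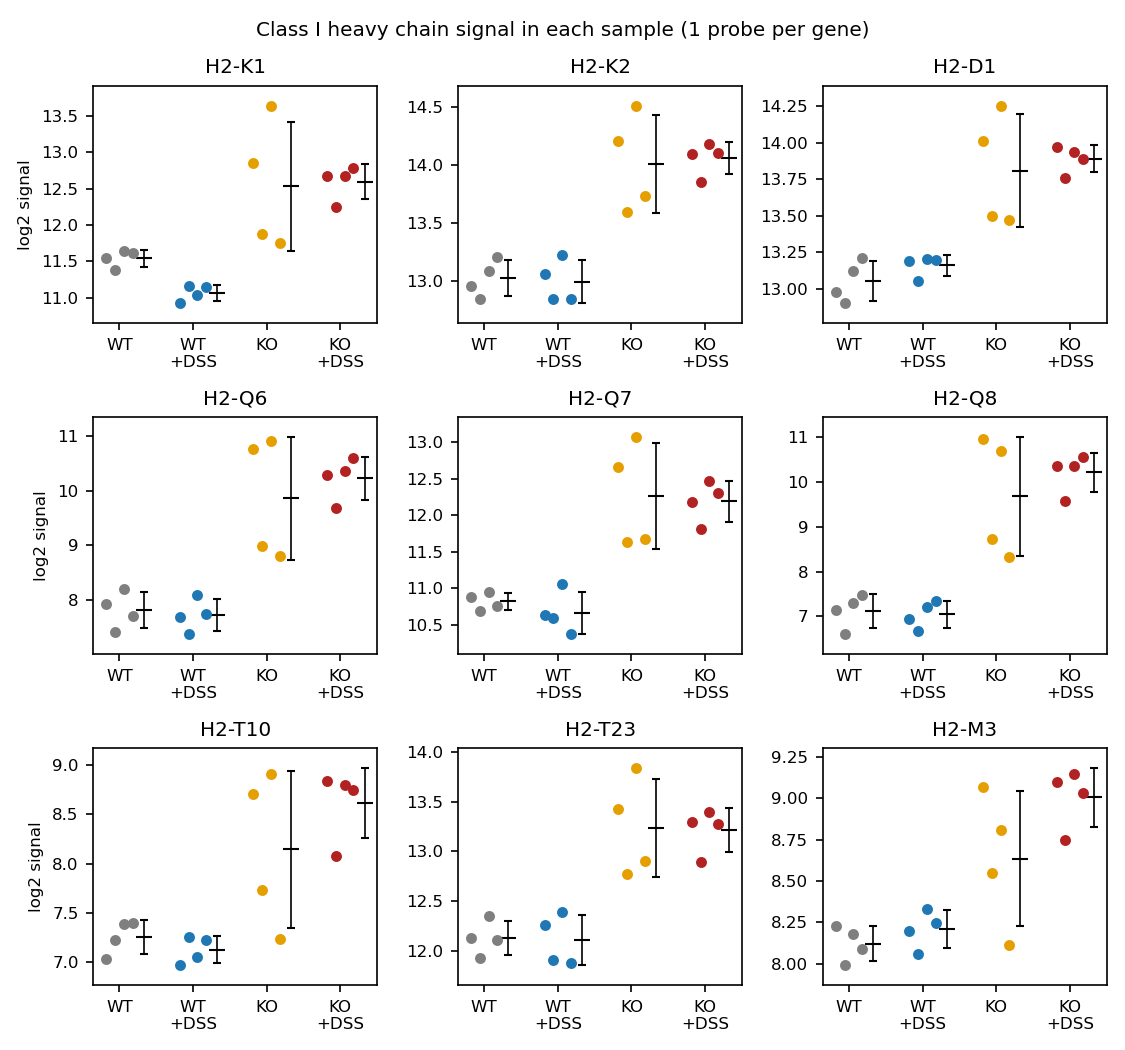
Log2 signal of 9 heavy chains in each of the 16 samples (points), by group, with the mean and SD of the 4 samples beside them (dash and bar); 1 probe per gene, with its own vertical scale. KO stands for Mbd2KO; the WT samples with and without DSS overlap for all genes shown but H2-K1, and untreated Mbd2KO has the largest SD of the 4 groups for each of the 9.

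The largest differences were in the Q region. H2-Q8 (ILMN_2951592) read 7.14, 6.60, 7.31 and 7.48 in untreated WT, 6.95, 6.67, 7.22 and 7.35 in DSS-treated WT, 10.95, 8.73, 10.69 and 8.33 in untreated Mbd2KO and 10.36, 9.57, 10.36 and 10.57 in DSS-treated Mbd2KO. The lowest Mbd2KO sample stood above the highest WT sample. The fold was 8.98 with DSS (limma adjusted p 0.00164) and 5.83 without (adjusted p 0.00480). The dimmer H2-Q8 probe (ILMN_2771182) gave 12.3-fold and 13.1-fold, with limma adjusted p of 0.00208 and 0.00131. Its log2 fold changes, 3.62 and 3.71, ran from 2.81 to 3.82 and from 2.66 to 4.41 under the alternatives of the closing section. It was called under 23 of 24 of them in each comparison.

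H2-Q6 was 5.68-fold higher in Mbd2KO than in WT with DSS and 4.13-fold higher without (limma adjusted p 0.00235 and 0.00774). With DSS it read 7.72 ± 0.30 (SD, n = 4) in WT and 10.23 ± 0.39 in Mbd2KO. Without DSS it read 7.81 ± 0.33 and 9.86 ± 1.12. H2-Q7 (ILMN_2924419) was 2.89-fold higher in Mbd2KO with DSS and 2.72-fold higher without (limma adjusted p 0.00372 and 0.00583). A second H2-Q7 probe (ILMN_2754167), of the set shared with H2-Q6 and H2-K1, changed by 1.71 and 1.13 on the log2 scale and was called with DSS. Under the alternatives its estimates fell as low as 0.68 and 0.49, and it was called with DSS under 21 of 23. It was detected on 3 of 5 DSS-treated WT arrays. The third (ILMN_2651877) was detected on 0 of 4 untreated WT arrays, 3 of 5 DSS-treated WT arrays and all arrays of Mbd2KO. With DSS the estimate was 5.30-fold higher in Mbd2KO (limma adjusted p 0.00733), against a WT group near the detection limit. It was called under 12 of 23 alternatives, and the log2 fold change was 1.03 without background correction and 1.59 with an offset of 50, from 2.41. Without DSS it was at least 3.41-fold higher, against the lowest signal detected on each untreated WT array, and was not called (limma adjusted p 0.0192), and the fitted log2 fold change of 2.05 was 0.88 without background correction. Of the probes that overlap this one, that of H2-Q5 changed by 0.80 and 0.65, with limma adjusted p of 0.00830 and 0.0248. That of H2-Q1 was detected on 4 of 18 arrays, 1 per group, so that its 0.11 and 0.08 (limma adjusted p 0.724 and 0.794) lie at background. The difference between probes was not tested.

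In the T and M region the estimates with DSS ran from 0.80 to 1.84. H2-T23 (ILMN_2777474) read 12.13, 11.93, 12.35 and 12.12 in untreated WT, 12.26, 11.91, 12.39 and 11.88 in DSS-treated WT, 13.42, 12.78, 13.84 and 12.90 in untreated Mbd2KO and 13.30, 12.90, 13.39 and 13.28 in DSS-treated Mbd2KO. The genotypes were again apart, and the fold was 2.15 both with and without DSS (limma adjusted p 0.00539 and 0.00599). Its overlapping probe (ILMN_2777471) gave 2.30-fold and 2.05-fold and was called in both. The remaining probe (ILMN_1223179), alike to no other, gave log2 fold changes of 0.91 and 0.48 and was not called in either; its untreated groups overlapped.

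H2-T10 had 3 tested probes, of which 2 were called between genotypes with DSS. The brightest (ILMN_2665266) changed by 1.49 ± 0.28 with DSS and by 0.89 ± 0.28 without (limma adjusted p 0.00663 and 0.0757). The other called probe (ILMN_2894678) was dim, detected on 2 of 4 untreated WT arrays. It changed by 1.52 ± 0.31 with DSS (limma adjusted p 0.00942). That estimate fell as low as 0.58 under the alternatives, and it was called under 5 of 23. The probe with the largest estimate, ILMN_1230878, changed by 1.84 ± 0.43 with DSS but was not called (limma adjusted p 0.0212), and its DSS-treated WT samples ran from 4.66 to 7.25.

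H2-M3 was measured by a single probe. It read 8.23, 7.99, 8.18 and 8.09 in untreated WT, 8.20, 8.06, 8.33 and 8.25 in DSS-treated WT, 9.07, 8.55, 8.81 and 8.11 in untreated Mbd2KO and 9.10, 8.75, 9.15 and 9.03 in DSS-treated Mbd2KO. The genotypes were apart with DSS and overlapped without it, through sample 16. The log2 fold change was 0.80 ± 0.16 with DSS (limma adjusted p 0.00982) and 0.51 ± 0.16 without (adjusted p 0.0745), and neither was called.

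H2-T22 could not be compared. Its probe lay between 4.31 and 4.93 in all 16 samples, at the level of undetected probes.

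No heavy chain was called between DSS-treated and untreated mice in either genotype. In WT mice 0 of 19 probes were called (limma, 1.74% of all tested probes called in either direction), 0 had an unadjusted p under 0.05, and the median log2 fold change was -0.085; 26.3% of all tested probes had such a p. In Mbd2KO mice 0 were called, against 1.72% of all tested probes, 2 had an unadjusted p under 0.05 (24.5% of all tested probes), and the median was 0.23, or 0.43 without sample 15 and 0.01 without sample 16. The interval of the DSS response in WT was -1.09 to 0.14 for H2-K1, -0.21 to 0.43 for H2-D1, -1.04 to 0.87 for H2-Q8, -0.45 to 0.41 for H2-T23 and -0.25 to 0.43 for H2-M3. In Mbd2KO it was -0.55 to 0.68 for H2-K1, -0.24 to 0.40 for H2-D1, -0.42 to 1.49 for H2-Q8, -0.44 to 0.41 for H2-T23 and 0.03 to 0.71 for H2-M3. The 2 probes of WT mice whose samples did not overlap were both lower with DSS, an H2-K1 probe by 0.48 and an H2-Q7 probe (ILMN_2754167) by 0.36 on the log2 scale (background 8.1% lower without overlap). That H2-Q7 probe was dim, detected on 3 of 5 DSS-treated WT arrays. Arrays 4 and 4R, averaged as sample 4, read 5.64 and 4.80 for it. Array 4 alone lay within the untreated WT range of 5.32 to 5.72. The signs of the DSS responses are relative to quantile-normalised arrays. With arrays scaled to a common median instead, all tested probes had a median of 0.24 in WT and 0.23 in Mbd2KO, and the heavy chains lay 0.01 below and 0.27 above it. Under that scaling 2 of 19 heavy chain probes in WT and 5 of 19 in Mbd2KO had an adjusted p under 0.05, and 0 were called.

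The genotype effect with DSS was set against that without DSS in an interaction term. It called 0 of 19 heavy chain probes and 0% of all tested probes, 0 of the 19 had an unadjusted p under 0.05 (10.7% of all tested probes did), and 16 of the 19 estimates were positive with a median of 0.29. That median rested on single samples of Mbd2KO: it was 0.05 with 11 of 19 positive without sample 16, 0.12 with 13 without sample 14, 0.44 with 18 without sample 6, 0.48 with 18 without sample 13 and 0.51 with 19 without sample 15. For H2-K1 the difference was 0.54 (interval -0.33 to 1.41) and for H2-Q8 0.62 (interval -0.73 to 1.97), and both intervals reached beyond 1 log2 unit. Untreated Mbd2KO mice also exceeded DSS-treated WT mice: 11 of 19 probes were called, all higher, against 0.925% of all tested probes called higher, and the median log2 fold change was 1.47. With these groups alone in the fit, 2 of 19 were called. With arrays scaled to a common median, 8 were called and 17 of 19 were positive, with a median of 0.94 beside -0.33 for all tested probes. That comparison shares its samples with those above. Ordered by mean level, both WT groups thus stood below both Mbd2KO groups for the 9 tested genes, except that with a common median H2-M3 was at -0.022 in untreated Mbd2KO against DSS-treated WT, and neighbours of the same genotype had no called difference.

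The untreated Mbd2KO samples fell apart among themselves. In all 19 tested probes, samples 13 and 15 were above samples 14 and 16. Relative to the mean of untreated WT, the median over the 19 probes was 1.46 in sample 13, 0.64 in sample 14, 1.71 in sample 15 and 0.52 in sample 16. It was 1.36, 0.83, 1.42 and 1.48 in the DSS-treated Mbd2KO samples and between -0.24 and 0.17 in all 8 WT samples. For 17 of the 19 probes the highest of all 16 samples was sample 13 or 15, both untreated. The shares of all tested probes with these patterns were not computed. The 19 probes varied together (median Pearson's r 0.84 after removing group means), so they are not separate observations. Samples 14 and 16 were still above every untreated WT sample in 14 of 19. The SD of untreated Mbd2KO was the largest of the 4 groups for 18 of the 19, with a median of 0.75 against 0.22 over all tested probes in the same group. Leaving out sample 16 doubled the number of probes called without DSS, to 14, and leaving out sample 13 or 15 reduced it to 1 or 2. Leaving out any of the untreated WT samples, 9, 10, 11 or 12, left 2, 1, 2 and 4 called, and all 19 fold changes stayed positive.

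**Figure D3:**
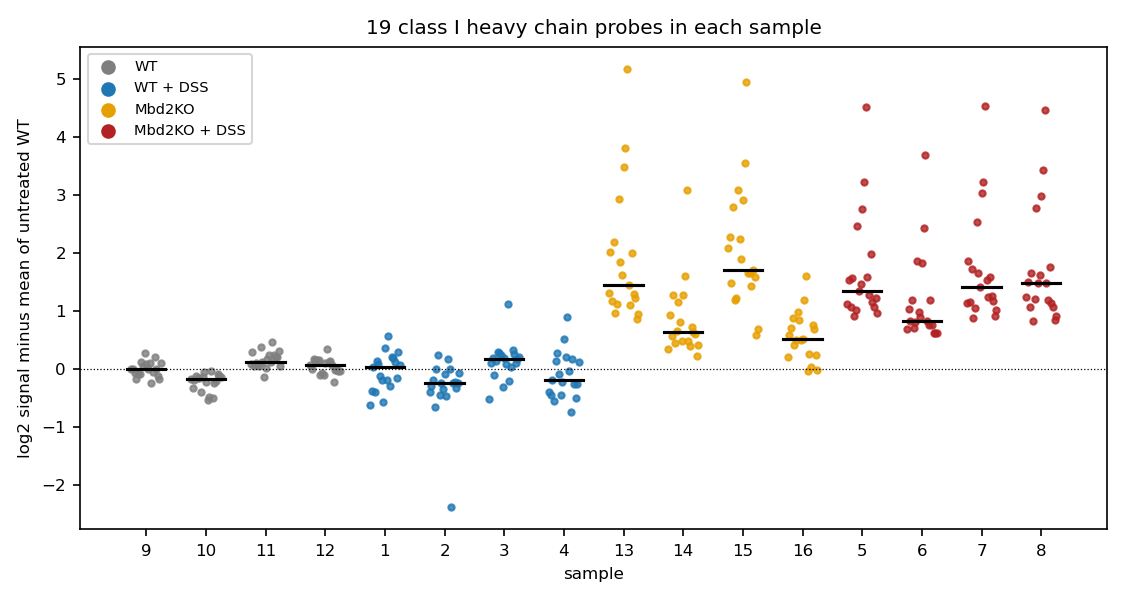
Log2 signal of the 19 tested heavy chain probes in each of the 16 samples, minus the mean of the untreated WT samples for the same probe (points), with the median of the 19 probes as a bar. Samples 13 and 15 of the untreated Mbd2KO group have medians of 1.46 and 1.71, above samples 14 and 16 at 0.64 and 0.52.

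Other genes of the pathway also stood higher in samples 13 and 15 than in samples 14 and 16. Nlrc5 read 8.20, 6.56, 7.04 and 5.34 in samples 13 to 16, Tap1 10.16, 8.55, 9.61 and 7.94, and B2m 14.61, 13.96, 14.38 and 13.84. The summed signal of the 7 tested leukocyte markers was 787.0, 490.2, 576.9 and 368.8 in these samples, against 306 to 496 in untreated WT. Its part in the heavy chain values was not tested. With DSS that sum was 847 to 1530 in WT and 1216 to 1412 in Mbd2KO, and DSS called Cd68, Csf1r and Lyz2, all macrophage genes, higher in WT and Lyz2 in Mbd2KO (1.88 and 1.70 for Lyz2). None of the 7 was called between genotypes, with 5 of 7 estimates positive with DSS (median 0.11) and 7 of 7 without (median 0.29). Fewer cells of a type and less RNA per cell cannot be told apart in such bulk samples.

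With DSS, 2 of 5 endothelial (Tek and Emcn) and 2 of 4 smooth muscle markers (Myh11 and Tagln) were called lower in Mbd2KO, beside 0.36% of all tested probes, and 0 of 5 fibroblast markers. The summed smooth muscle signal was 4847 to 7336 in WT and 1824 to 3488 in Mbd2KO with DSS. The summed endothelial signal was 397 to 596 in WT and 253 to 290 in Mbd2KO, and the summed fibroblast signal was 5060 to 5603 and 3494 to 4175. Without DSS none of these markers was called, the endothelial sums were 320 to 419 in WT and 240 to 315 in Mbd2KO, and the smooth muscle sums were 3911 to 7404 and 3264 to 4591. Of the epithelial markers, 0 of 10 were called between genotypes, with medians of 0.01 with DSS and -0.05 without. The part of these shifts in the heavy chain values was not tested.

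The light chain and part of the genes that supply and load peptides were also higher in Mbd2KO. With DSS, 13 of the 14 genes listed were tested, and all 13 estimates were positive, 9 had an adjusted p under 0.05 and 1 was called, with a median of 0.83. Without DSS, 7 had an adjusted p under 0.05 and 3 were called, with a median of 0.96. B2m, the light chain of every class I molecule, read 13.28, 13.16, 13.33 and 13.18 in untreated WT, 13.73, 13.54, 13.78 and 13.69 in DSS-treated WT, and 14.57, 14.37, 14.62 and 14.48 in DSS-treated Mbd2KO. It changed by 0.83 with DSS and 0.96 without (limma adjusted p 0.00398 and 0.00141), short of the fold for a call. Psmb8, a catalytic subunit of the immunoproteasome, changed by 2.19 and 3.04 and was called in both. Psmb9, another such subunit, changed by 1.81 and 2.21 and was called without DSS alone, the difference between the effects being -0.40 (limma adjusted p 0.833).

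The transporter subunits and tapasin were compared between genotypes in the same way. Tap1 changed by 1.57 with DSS (limma adjusted p 0.0192) and by 2.44 without (adjusted p 0.00141, called). Tap2 changed by 1.53 and 1.48 (limma adjusted p 0.0105 and 0.0146). Tapbp, which encodes tapasin, changed by 1.53 and 1.06 (limma adjusted p 0.0141 and 0.0721).

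DSS in WT mice raised part of this machinery. Of the 13 genes, 7 had an adjusted p under 0.05 (all tested probes 5.71% higher) and 1 was called, with a median of 0.59, beside -0.09 for the 9 heavy chain genes. Tap1, the called gene, changed by 1.82 (limma adjusted p 0.00514). Psmb8 rose by 1.51 and Psmb9 by 1.46 (limma adjusted p 0.0273 and 0.0224), without reaching a call. B2m changed by 0.45 (adjusted p 0.0561 by limma), and its 4 DSS-treated WT samples lay above the 4 untreated ones. Tapbp changed by -0.66 (limma adjusted p 0.220). In Mbd2KO mice the median was 0.50 and 2 of 13 had an adjusted p under 0.05 (all tested probes 4.9% higher). No test compared the 2 sets of genes.

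**Figure D4:**
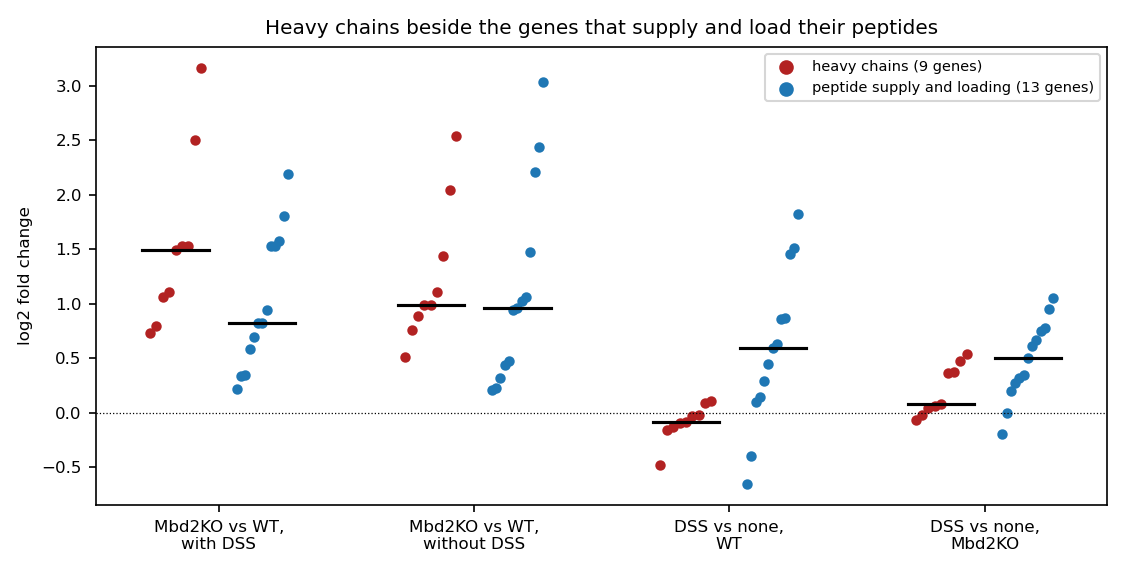
Log2 fold changes of the 9 tested heavy chain genes (red, 1 probe each) and of 13 genes for peptide supply and loading (blue) in 4 comparisons, with the median of each set as a bar. Between genotypes both sets lie above 0; between DSS-treated and untreated WT the median is -0.09 for the heavy chains and 0.59 for the other genes.

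Among regulators of class I expression, Nlrc5 and Ciita, the transactivators of class I and class II genes, were called higher in both genotype comparisons. They were the 2 called of 11 tested, and 3 of the 11 had an adjusted p under 0.05 with DSS and 5 without. Nlrc5, which the file lists as AI451557, read 4.39, 4.67, 4.46 and 4.48 in untreated WT, 5.76, 5.28, 6.30 and 6.47 in DSS-treated WT and 8.51, 7.62, 8.23 and 8.36 in DSS-treated Mbd2KO. It changed by 2.23 between genotypes with DSS (limma adjusted p 0.00628). It was detected on 0 of 4 untreated WT arrays, as was Ciita, so folds against that group are bounds: Nlrc5 was at least 3.70-fold higher in untreated Mbd2KO (limma adjusted p 0.00586) and at least 2.07-fold higher in DSS-treated WT (adjusted p 0.0364). Irf1, an interferon-induced transcription factor, changed by 0.55 and 0.83 (adjusted p 0.0888 and 0.0174 by limma).

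Other heavy chain genes of the H2 complex were mostly dim. Of 18 on the array, 7 were tested and 0 were called between genotypes (limma), but 6 of 7 estimates were positive with DSS, 4 with an adjusted p under 0.05, and the median was 0.80. Class I-like genes outside the complex did not share the direction. Of 6 tested, 0 were called, 1 estimate was positive with DSS and the median was -0.35. Cd1d1, which presents lipids to NKT cells, changed by -0.47 with DSS and -0.52 without (limma adjusted p 0.0450 and 0.0307).

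The heavy chains also varied together from sample to sample. Over the 16 samples, Pearson's r between pairs of tested probes ran from 0.71 to 0.99 with a median of 0.94, and after removing group means it had a median of 0.84, from 0.37 to 0.98 (171 pairs, given as a description, since samples share arrays, group and sequence). The genes outside the members most like their mean profile were 0610037M15Rik (r = 0.99 over 16 samples), an older symbol of H2-Q6 in RefSeq, LOC547343 (0.98), LOC674135 (0.97), LOC100044190 (0.96), H2-Eb2 (0.96), Apol7a (0.95), Tap2 (0.95) and C2 (0.94). The LOC547343 probe shared 47 of 49 overlapping bases with an H2-D1 probe, and that of LOC100044190 shared 45 of 47 with an H2-T10 probe. H2-Eb2 is a class II gene and C2 encodes a complement component. Both lie in the same complex.

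Promoter sequences are given because the members moved together and Nlrc5 acts through a promoter module that class I genes share. RefSeq promoters (GRCm38.p6, 250 bases before to 50 after the start, table of 32851) matched 7 member genes, H2-K1 with a pair of starts, and there was no entry for H2-K2, H2-Q8 and H2-T10. 3 short motifs were searched on both strands: ATTGG (Y box), TGACG (core of the X2 box) and GAAA followed after any 2 bases by GAAA (core of the interferon response element). None of the 3 contains another. ATTGG was in all 7 and in 37.41% of all promoters. TGACG was in H2-K1, H2-D1, H2-Q7, H2-T22 and H2-M3 and in 20.81%, and the paired GAAA in H2-T23 and H2-T22 and in 3.44%. Only exact letters were counted, so a promoter without a match can still hold a near form of a motif. The stretches of H2-K1, H2-D1, H2-Q7 and H2-M3 below hold tttcacttct, which is close to the paired GAAA on the other strand but was not counted. TGACG with ATTGG starting 24 to 26 bases after its own first base, a spacing looked for after seeing these promoters, was in H2-K1, H2-D1, H2-Q7 and H2-M3 and in 0.201% of all promoters. CG dinucleotides, the sites Mbd2 binds when methylated, numbered 5 to 19 per member promoter, beside a median of 7 over all promoters (quartiles 3 and 20). Methylation was not measured. Capitals mark the motifs.
H2-K1, chr17:34000349-34000448, minus strand: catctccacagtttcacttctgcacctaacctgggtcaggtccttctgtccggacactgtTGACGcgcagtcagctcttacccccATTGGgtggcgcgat
H2-D1, chr17:35262933-35263032, plus strand: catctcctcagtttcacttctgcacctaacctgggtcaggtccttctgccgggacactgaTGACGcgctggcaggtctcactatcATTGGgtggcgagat
H2-Q7, chr17:35439031-35439129, plus strand: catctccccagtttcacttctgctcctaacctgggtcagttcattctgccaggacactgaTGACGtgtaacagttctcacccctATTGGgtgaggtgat
H2-M3, chr17:37270128-37270227, plus strand: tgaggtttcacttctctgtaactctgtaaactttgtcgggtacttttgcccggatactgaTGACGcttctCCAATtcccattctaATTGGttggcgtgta

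H2-Q6 and H2-T23, called with DSS, did not hold the exact letters at that spacing in the window. H2-Q6 reads tgacc where H2-Q7 reads TGACG, with the same bases from there to ATTGG. Their sequences are given beside the others, with the same capitals.
H2-Q6, chr17:35424700-35424849, plus strand: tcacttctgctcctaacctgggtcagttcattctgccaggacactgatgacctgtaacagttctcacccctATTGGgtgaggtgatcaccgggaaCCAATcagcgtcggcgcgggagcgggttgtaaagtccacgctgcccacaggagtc
H2-T23, chr17:36032702-36032851, minus strand: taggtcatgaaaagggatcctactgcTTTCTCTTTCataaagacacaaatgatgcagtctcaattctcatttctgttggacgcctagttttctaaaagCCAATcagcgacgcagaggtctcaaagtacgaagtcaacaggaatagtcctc
Between genotypes with DSS, the genes that held the exact letters changed by 1.53 (H2-K1), 0.73 (H2-D1), 1.53 (H2-Q7) and 0.80 (H2-M3). Those that did not changed by 2.51 (H2-Q6, with tgacc for TGACG) and 1.11 (H2-T23). A match to these letters is a description and not evidence of binding.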

How the data were processed

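The authors deposited the mean bead intensity of each probe and array with a detection p-value (18 arrays, 45281 probes, 974 control probes), not normalised. Per the labels, their own work used lumi and limma, with no versions given. The deposited table held 72 further per-sample columns, with bead counts and spreads, which were not used. Here signals were background corrected with the normexp method on 936 negative controls, given an offset of 16, quantile normalised and put on a log2 scale (neqc, limma 3.58.1, R 4.3.3). The offset understates fold changes of dim probes. Arrays 4 and 4R, and 5 and 5R, differed by less (SD of the log2 difference 0.194 and 0.236) than other pairs of their groups (0.334 or more and 0.287 or more), so each pair was averaged as 1 sample. A probe was tested if 4 or more arrays gave it a detection p-value below 0.05. One model with 4 group means was fitted to the 16 samples (12 residual and 4.71 prior degrees of freedom), with empirical Bayes moderation and Benjamini-Hochberg adjustment over all tested probes for each contrast. Intervals are 95%. The number of samples limits the precision.

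Probe names were those of the file, and 29586 probes were matched to RefSeq (GRCm38.p6) by Entrez identifier. A gene was represented by its tested probe with the highest mean signal, and its other probes are given beside it. The genes named outside the members are a fixed list of the pathway, cell type markers and the 8 genes most alike in pattern. Members and lists were chosen with earlier results of these data known. The procedure was tested on simulated data with 200 changed probes. Scripts also used Python 3.11.15, and the alternatives tried are listed in the closing section.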

Additional observations from a re-analysis of the deposited data

Results flagged for a closer look

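In 3 of 76 groups of 4 (19 probes in 4 groups), 1 sample lay far from the other samples of its group; chance gives about 1 in 20. For H2-D1 (ILMN_2462745), DSS-treated WT sample 2 was at 13.05 and the others between 13.19 and 13.20. For H2-Q8 (ILMN_2771182), DSS-treated Mbd2KO sample 6 was at 9.81 and the others between 10.57 and 10.65. For H2-T10 (ILMN_2665266), the same sample 6 was at 8.08 and the others between 8.74 and 8.84.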

How the results depend on the processing

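For both genotype comparisons, the fold changes of all 19 probes stayed positive under every alternative run, while the number of calls did not hold. With DSS (14 called) it was 9 without background correction, where the median fell to 1.06, and 7 without the filter on dim probes; leaving out 1 sample gave 2 to 14, with 4 without sample 2, 5 without sample 4, 2 without sample 5 and 6 without sample 7 or 8, while 18 or 19 of 19 kept an adjusted p under 0.05. Without DSS (7 called) it was 4 with arrays scaled to a common median, 1 without the filter, 0 with only the groups compared in the fit and 1 to 14 leaving out 1 sample. H2-K2 (ILMN_2810539) and H2-Q8 (ILMN_2951592) were the 2 probes called with DSS under every alternative, and no probe was without DSS. For untreated Mbd2KO against DSS-treated WT (11 called), it was 2 with only those groups in the fit and 9 to 14 leaving out 1 sample. With a common median the median DSS response was 0.23 in WT and 0.51 in Mbd2KO, and leaving out 1 sample gave -0.15 to 0.03 and 0.01 to 0.43.

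Several estimates changed sign, most of them near 0. With a common median the DSS response in WT became 0.35 for H2-K2, 0.23 for H2-Q6, 0.23 for H2-Q7, 0.20 for H2-Q8, 0.17 for H2-T10 and 0.35 for H2-T23, that in Mbd2KO 0.36 for H2-Q7 and 0.35 for H2-T23, and untreated Mbd2KO against DSS-treated WT -0.034 for H2-T23 (ILMN_1223179, from 0.49) and -0.022 for H2-M3 (from 0.43). Leaving out 1 sample, the DSS response in WT ran from -0.11 to 0.029 for H2-K2, from -0.22 to 0.036 for H2-Q6, from -0.26 to 0.041 for H2-Q8 and from -0.11 to 0.057 for H2-T23. In Mbd2KO it ran from -0.091 to 0.21 for H2-K2, from -0.032 to 0.23 for H2-D1, from -0.20 to 0.43 for H2-K1, from -0.28 to 0.20 for H2-Q7 and from -0.17 to 0.18 for H2-T23. None of these was called, and the cause was not tested. An offset of 50, the stricter filter, all 18 arrays as separate samples, or arrays 4R and 5R left out changed no count of heavy chain calls by over 1.5 times. The number of all tested probes called with DSS, 189, was 109, 118, 420 and 187 in these settings. No paired analysis was possible because the labels give no number that groups share, and which samples share a litter or experiment is not known. Slide as a block was not run, since no slide is given. Signal over background limits H2-T22.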
